A study of Mus musculus with 4 samples.

Results

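Sustentacular cells are the supporting cells of the olfactory epithelium, and those carrying the transcripts of Sprr1a and Edn2 were set against those carrying neither. Candidate sustentacular barcodes had at least 500 detected genes, at most 10% mitochondrial UMIs, at least 20 UMIs of Cyp2g1, at most 15 of Omp and at most 4 of Krt5. A UMI (unique molecular identifier) counts 1 captured RNA molecule. Of 41911 barcodes in 4 libraries, 39715 passed the gene and mitochondrial limits and 6600 passed the whole gate. Cells with at least 4 UMIs of Sprr1a plus Edn2 are called stress-marked here (1613 cells), and cells with 0 UMIs of both are called resting (2698 cells). The 2289 cells with 1 to 3 UMIs were left between the sides, so 4311 cells entered the comparison. The members were chosen on the measured levels of these 2 genes, so their own levels are description only.

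Sustentacular cells span the depth of the epithelium, wrap the olfactory neurons, form the tight apical surface and hold dense sets of cytochrome P450 and conjugating enzymes that clear inhaled chemicals. Sprr1a encodes a small proline-rich protein, a precursor of the cornified envelope that injured epithelia and regenerating neurons switch on. Edn2 encodes endothelin-2, a secreted vasoactive peptide. Immediate early genes such as Fos, Egr1 and Atf3 encode transcription factors and are transcribed within minutes of a stimulus, without needing new proteins first.

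The 4 libraries came from the main olfactory epithelium of untreated wild-type C57BL/6J mice aged 3 months, 2 female and 2 male. According to the labels, warm papain with DNase I freed the cells, and a droplet kit that reads transcripts from their 5′ end made the libraries. All 4 went through that digestion. Each library supplied both sides, so 4 paired sums were compared. The labels do not say that each library was 1 animal, so p-values measure only the spread between these libraries.

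Edn2 rather than Sprr1a placed most cells on the stress-marked side. Of the 1613 cells, 1170 (72.5%) had at least 4 Edn2 UMIs and no Sprr1a, 212 (13.1%) had at least 4 Sprr1a UMIs and 111 (6.88%) had at least 4 of both. The summed level of Edn2 on the stress-marked side was 703, 687, 599 and 597 CPM in female 1, female 2, male 1 and male 2, where CPM scales a gene's UMIs to one common total per sum. Sprr1a was less even, at 325, 103, 131 and 36.2 CPM in the same order. Female 1 alone held 2423 of the 4385 Sprr1a UMIs of the gated cells, against 274 in male 2. At the limit itself, 414 gated cells had 3 marker UMIs and stayed out, while 321 had 4 and entered. Neither gene was restricted to the gate. Edn2 had at least 1 UMI in 56.6% of gated cells (median depth 13872 UMIs), in 34.4% of Krt5-positive basal barcodes (8312 UMIs) and in 8.33% of Omp-positive neuron barcodes (8611 UMIs). For Sprr1a the shares were 10.4%, 3.17% and 1.07%. After thinning each cell to 5000 UMIs they were 38.3%, 26.8% and 5.04% for Edn2 and 6.19%, 2.25% and 0.717% for Sprr1a. The basal and neuron shares are given for comparison only. Free RNA can give UMIs in cells that do not express a gene, and its part in these shares was not tested.

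The promoters of the 2 marking genes are printed because members of the AP-1 family, which bind the letters TGANTCA, were among the genes that rose. Sequences are from RefSeq (GRCm38.p6), run from 250 bases before to 50 after the start, on the gene's strand, and carry AP-1 matches in capitals.
Sprr1a, chr3:92485832-92486131, minus strand: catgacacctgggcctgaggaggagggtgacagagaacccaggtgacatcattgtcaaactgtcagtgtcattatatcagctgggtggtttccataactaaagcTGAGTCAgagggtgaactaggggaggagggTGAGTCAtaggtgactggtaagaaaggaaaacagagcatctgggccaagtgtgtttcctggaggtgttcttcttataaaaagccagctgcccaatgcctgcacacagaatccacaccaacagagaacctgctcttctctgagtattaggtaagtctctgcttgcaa
Edn2, chr4:120160956-120161255, plus strand: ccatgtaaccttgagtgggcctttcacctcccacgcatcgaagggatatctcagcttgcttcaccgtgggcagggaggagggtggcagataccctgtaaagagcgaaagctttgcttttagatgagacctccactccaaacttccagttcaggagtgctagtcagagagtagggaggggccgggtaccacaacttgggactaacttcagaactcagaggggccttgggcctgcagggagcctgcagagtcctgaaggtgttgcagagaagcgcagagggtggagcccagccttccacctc
The Sprr1a window held 2 matches and the Edn2 window held none. The letters were searched on both strands, and a match is a description of the sequence, not a shown binding site.

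Both sides carried the sustentacular transcripts. All 10 markers of these cells were detected on each side, with a summed level of 45336 to 51031 CPM over the stress-marked sums and 49242 to 55190 CPM over the resting sums. These sums include Cyp2g1, on which the cells were gated. Without cells holding a Sox9 or Sox10 UMI, described below, they were 46065 to 51914 CPM in stress-marked cells and 57879 to 62614 CPM at rest. Those ranges did not overlap. Cyp2g1, the gated P450, stood at 9398, 9131, 12592 and 11721 CPM in stress-marked cells and 18915, 15917, 18742 and 17497 CPM in resting cells. Omp, the olfactory marker protein of neurons, stood at 132 to 147 CPM against 159 to 170 CPM, and Krt5, a basal keratin, at 0.755 to 1.96 against 1.05 to 1.80 CPM. Median depth was 14046 to 14355 UMIs per stress-marked cell and 12529 to 13555 per resting cell, and the median mitochondrial share was 3.02% to 3.42% against 3.64% to 3.78%. Barcodes scored as doublets made up 4.71% and 4.34% of the sides.

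The resting side also held cells with glandular transcripts. Sox9 and Sox10, transcription factors of the Bowman glands that lie under the epithelium, had a UMI in 541 of 2698 resting cells (20.1%) and in 89 of 1613 stress-marked cells (5.52%). Sox10 stood at 66.5, 66.9, 49.8 and 39.7 CPM in resting cells and at 0.699, 3.51, 0.905 and 4.98 CPM in stress-marked cells. The summed level of the 9 Bowman gland markers was 162 to 284 CPM on the resting side and 18.8 to 192 CPM on the stress-marked side. Of 7 tested, 3 were lower in stress-marked cells and none higher, against 7.86% and 9.06% of all genes. Other members had the higher mean in stress-marked cells, namely Bpifb5, Bpifb9a, Bpifb9b and Gp2. In male 2, Bpifb9b stood at 37.8 CPM at rest and 85.6 CPM in stress-marked cells, and Bpifb9a at 13.7 and 35.2 CPM. The comparison of the sides was therefore repeated without cells holding a Sox9 or Sox10 UMI, a choice made after these values were seen. The gene counts and some of the values below are also given from that repeat. Unless a value is said to leave these cells out, it includes them. Without the Sox9 or Sox10 cells the gland sums were 8.03 to 65.6 CPM at rest and 6.16 to 141 CPM in stress-marked cells. Bpifb9b alone then stood at 39.9 and 91.8 CPM in male 2. The gland list includes Sox9 and Sox10, which that choice removes, so part of the drop was set in advance. Tuft markers, of the chemosensory microvillar cells, summed to 49.7 to 59.1 CPM at rest and 20.9 to 44.2 CPM in stress-marked cells. The ensheathing glia list, which includes Sox10, summed to 107 to 240 and 38.4 to 50.6 CPM. Without the Sox9 or Sox10 cells the tuft sums were 5.88 to 20.9 CPM at rest and 2.52 to 7.51 CPM in stress-marked cells. The glia sums were then 43.4 to 115 and 38.2 to 46.7 CPM. The part of the Sox9 or Sox10 cells in the results was not tested beyond that repeat.

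Of 12717 genes tested, 1152 were higher in stress-marked cells (9.06%) and 999 lower (7.86%), 16.9% in all, by edgeR's quasi-likelihood test with the library as a block at a Benjamini-Hochberg adjusted p of 0.05. Without Sox9 or Sox10 cells, 1024 of 12323 were higher (8.31%) and 589 lower (4.78%). Of the 1152 higher genes, 814 were called higher again (70.7% of the first list, 79.5% of the second), against 329 of the 999 lower genes (32.9% and 55.9%). These shares count genes that fell below the filter as not called again, 124 of the lower genes and 2 of the higher ones. A further 32 genes called lower with the Sox9 or Sox10 cells were called higher without them.

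Regulators of the early transcriptional response were among the genes with the largest rises. Nr4a1, an orphan nuclear receptor induced by many stimuli, stood at 329, 383, 428 and 562 CPM in resting cells and at 1663, 1788, 1592 and 1718 CPM in stress-marked cells, in the order female 1, female 2, male 1 and male 2. Its log2 fold change was 2.06 ± 0.11 (SE, 4 pairs, edgeR adjusted p = 1.2e-05). Every stress-marked sum lay above every resting sum. Its relatives Nr4a3 and Nr4a2 rose by 2.29 ± 0.15 and 2.18 ± 0.10 on the log2 scale. Atf3, a stress-induced factor of the ATF family, went from 312, 346, 321 and 437 CPM to 1454, 1475, 1171 and 1441 CPM, a log2 fold change of 2.02 ± 0.07 (edgeR adjusted p = 4.71e-06). Klf2, a zinc finger factor, rose by 2.18 ± 0.12, and Cebpd, a C/EBP factor of the acute phase response, by 1.88 ± 0.11. Other leading genes were the growth arrest gene Gadd45g (1.90 ± 0.12), the ERK phosphatase gene Dusp5 (1.85 ± 0.06), Tent5a, which encodes a poly(A) polymerase (2.04 ± 0.10), Arc (1.80 ± 0.07) and Fgl2 (1.83 ± 0.12). The 2 sides did not overlap in any of these 11 genes, as in 21.1% of all genes tested, and each was called under the leave-one-out fits.

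Among genes with at least 30 CPM the largest fold was that of Bpifa1, which encodes a secreted antimicrobial protein of the airway, and it rested on few cells. Its level went from 305, 1642, 355 and 834 CPM to 4841, 2732, 2547 and 3836 CPM (log2 fold change 2.49 ± 0.45, edgeR adjusted p = 0.00657). The 10 stress-marked cells with most Bpifa1 held 79.4% of its UMIs on that side, and the 10 highest resting cells held 76.7%. In contrast, the 10 highest stress-marked cells held 3.39% of Nr4a1 UMIs and 4.56% of Atf3 UMIs. Atf3 was detected in 93.4% of stress-marked and 59.0% of resting cells. With cells marked by Sprr1a alone, Bpifa1 was lower than in resting cells by a log2 fold change of -1.48.

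**Figure D1:**
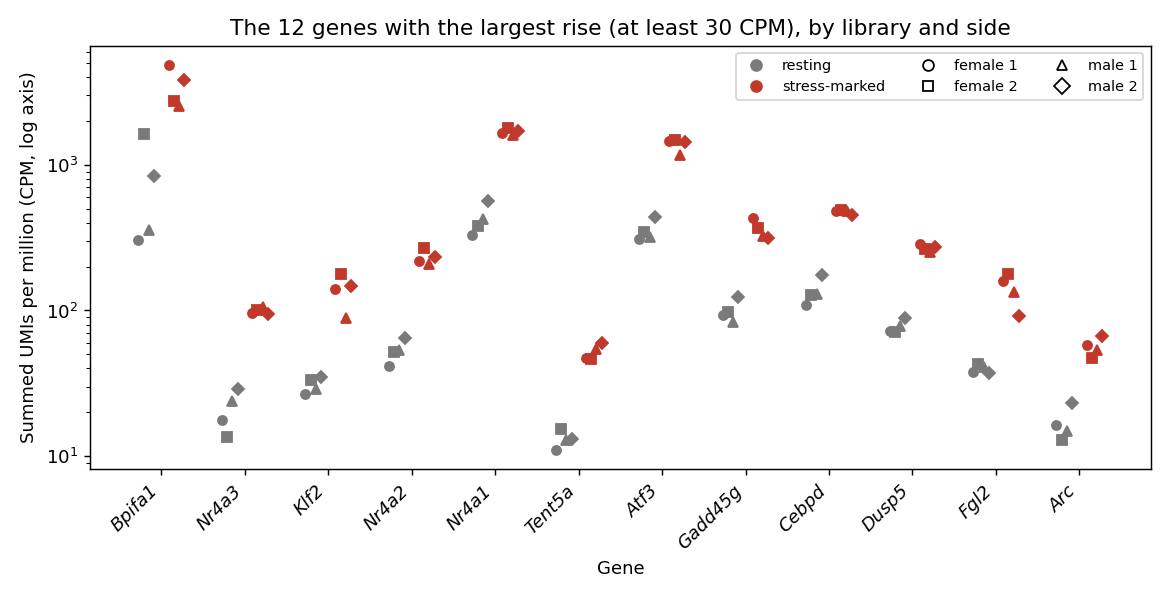
Summed level of the 12 genes with the largest rise among those with at least 30 CPM in stress-marked cells (y axis, CPM on a log axis) in resting (grey) and stress-marked (red) cells of each library, with 1 symbol per library. The 4 red points lie above the 4 grey points for each gene, and Bpifa1 spreads most, from 305 to 1642 CPM among resting sums.

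Of the 22 immediate early genes listed, all tested, 21 were higher in stress-marked cells, against 9.06% of all genes tested. Their median log2 fold change was 1.04 against -0.02 over all genes tested. Fos was among the most abundant of them, at 1971, 1875, 1831 and 2243 CPM in resting cells and 5533, 5018, 4276 and 4727 CPM in stress-marked cells (log2 fold change 1.34 ± 0.06, edgeR adjusted p = 7.41e-06). Egr1, a zinc finger factor, rose by 1.30 ± 0.06 from 945 to 1089 CPM at rest to 2171 to 2547 CPM. Fosl1, an AP-1 subunit, rose by 1.90 ± 0.12, and Jun, its partner, by 0.78 ± 0.03. The smallest rise that passed was Jund (0.26). Myc, which encodes a growth-promoting factor, did not pass, at 0.19 ± 0.33. Resting cells also held these transcripts, and no resting sum of Fos was below 1831 CPM. Without Sox9 or Sox10 cells 21 of 22 were again higher, and the median was 1.35.

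**Figure D2:**
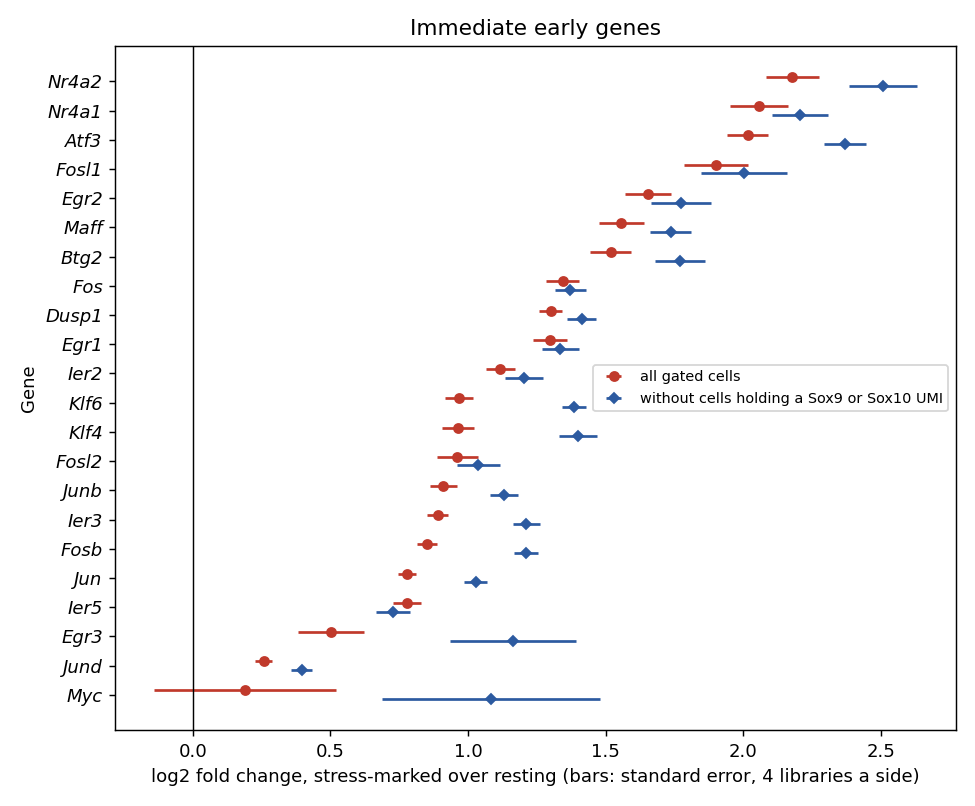
Log2 fold change of 22 immediate early genes (x axis) in stress-marked over resting cells, with all gated cells (red circles) and without cells holding a Sox9 or Sox10 UMI (blue diamonds), and bars giving the standard error over 4 library pairs. Nr4a2, Nr4a1 and Atf3 lie above 2 in both sets, and Myc did not pass the test in either.

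Of 15 chaperone genes, 10 were higher and none lower (median 0.24), against 9.06% and 7.86% of all genes. Without Sox9 or Sox10 cells 12 were higher, against 8.31% of all genes. Dnajb1, a heat-shock-induced co-chaperone of the HSP70 proteins, went from 281, 260, 326 and 360 CPM to 657, 662, 701 and 754 CPM (log2 fold change 1.23 ± 0.05, edgeR adjusted p = 6.12e-06). Hspb1, a small heat shock protein gene, went from 1071, 1012, 1344 and 1374 CPM to 2275, 2381, 2504 and 2321 CPM (1.04 ± 0.07). The groups did not overlap for either gene. Hspa1a, an inducible HSP70 gene, rose by only 0.30 ± 0.04, and its sums of 538 to 735 CPM at rest overlapped those of 628 to 883 CPM in stress-marked cells. Bag3 rose by 0.71 and Dnaja1 by 0.50.

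In the ATF4 and unfolded protein list 7 of 20 genes were higher and none lower. Ppp1r15a, which encodes the phosphatase subunit GADD34 that restarts translation after stress, rose by 1.44 ± 0.07, from 781 to 1079 CPM at rest to 2287 to 2520 CPM. The other leading members were Ddit4 (0.70), Dnajb9 (0.46) and Atf4 (0.44). Of 12 p53 targets, Plk2 was higher (0.36) and Sesn1 lower (-0.48), close to the shares of all genes (9.06% and 7.86%). Of 19 genes of the NRF2 and oxidative stress list, 3 were higher and 3 lower, and Hmox1, the heme oxygenase gene, did not pass at -0.09 ± 0.10. Of 17 tested cell death genes 7 were higher, led by Casp4, an inflammatory caspase (1.96 ± 0.28). Mcl1, a survival gene of the BCL2 family, rose by 0.55. Of 4 tested genes of the metallothionein list none passed, and Mt1 and Mt2 were higher in the fit without Sox9 or Sox10 cells (0.40 and 0.38). That difference between the fits was not tested.

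Inflammatory transcripts were higher in part. Of 16 tested genes of the NF-kB list 9 were higher and 1 lower, against 9.06% and 7.86% of all genes. Nfkbia, the feedback inhibitor of NF-kB, went from 177, 191, 169 and 217 CPM to 344, 345, 326 and 415 CPM (log2 fold change 0.96 ± 0.04, edgeR adjusted p = 6.12e-06). Bcl3, a nuclear co-regulator, rose by 2.05 ± 0.16. Tnfaip3, which encodes the A20 feedback enzyme, was lower at -1.01 ± 0.13 but higher at 0.54 ± 0.14 without Sox9 or Sox10 cells.

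Among 13 tested cytokine and chemokine genes 3 were higher and 3 lower, against 9.06% and 7.86% of all genes. Il6, the interleukin-6 gene, was at 3.75, 2.21, 2.14 and 2.74 CPM in resting cells and at 27.2, 17.5, 18.6 and 14.8 CPM in stress-marked cells (log2 fold change 2.88 ± 0.15, edgeR adjusted p = 1.31e-05). It was detected in 10.2% of stress-marked and 1.59% of resting cells. Cxcl1, a neutrophil attractant, went from 8.74, 26.9, 9.80 and 8.11 CPM to 39.1, 36.9, 30.3 and 27.6 CPM (1.45 ± 0.24, edgeR adjusted p = 0.00472). The highest resting sum, that of female 2, came within 1 CPM of the lowest stress-marked sum without crossing it. Cxcl1 UMIs were found in 10.8% of stress-marked cells, and the 10 highest cells held 26.8% of them. Cxcl17, a mucosal chemokine, was lower at -2.62 ± 0.24 with all cells and higher at 1.75 ± 0.23 without Sox9 or Sox10 cells, and Cxcl5, lower at -2.90 ± 0.68, fell below the count filter without them. The neutrophil list stood at 1.37 to 52.0 CPM in stress-marked and 1.60 to 48.7 CPM in resting sums with Mmp8 at 0 in both. The macrophage list, all 8 markers detected, stood at 8.69 to 284 and 7.75 to 160 CPM, with none of its 8 tested members passing.

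Of 13 tested genes of the STAT3 and acute phase list 6 were higher and none lower, against 9.06% and 7.86% of all genes. Socs3, the feedback inhibitor of STAT3 signalling, rose by 1.51 ± 0.09, from 198, 201, 205 and 263 CPM to 661, 638, 463 and 646 CPM. Steap4, a metalloreductase gene, rose by 2.48 ± 0.30 at under 10 CPM. Lcn2, the iron-binding lipocalin of the acute phase, did not pass with all cells (0.17) and was higher without Sox9 or Sox10 cells (1.57).

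Interferon-responsive genes were higher in 10 of 18 (median 0.62) and lower in none, against 9.06% and 7.86% of all genes. Irf1, a transcription factor of this response, went from 113, 124, 89.4 and 130 CPM to 278, 318, 197 and 241 CPM (log2 fold change 1.22 ± 0.07, edgeR adjusted p = 2.94e-05). Gbp2, a guanylate-binding protein gene, rose by 2.04 and the immunoproteasome subunit gene Psmb8 by 1.19. Ifitm3, a membrane-bound antiviral gene, rose by 1.07 ± 0.14, although the sums overlapped, the resting sum in male 2 lying just above the stress-marked sum in male 1, both near 159 CPM. Genes of MHC class II antigen presentation, picked after their values were seen, were also higher. Cd74, the invariant chain, went from 57.9, 214, 22.7 and 224 CPM to 156, 457, 152 and 509 CPM (1.57 ± 0.22, edgeR adjusted p = 0.00215). It was higher in stress-marked cells of 4 of 4 libraries, yet female 2 and male 2 exceeded the other libraries on both sides, so the sums overlapped. H2-Aa, H2-Ab1 and H2-Eb1 rose by 1.49, 1.53 and 1.71. The 10 highest cells held 25.5% of stress-marked Cd74 UMIs, and 39.6% of stress-marked and 17.5% of resting cells had any. The part of immune cell RNA in these levels was not tested.

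Genes of xenobiotic metabolism went both ways, with 10 of 41 tested higher and 9 lower, a median of -0.01. Of all genes 9.06% were higher and 7.86% lower. Cyp2a5, the most abundant P450 listed, went from 31796, 28348, 31429 and 31402 CPM at rest to 21560, 21546, 27645 and 27953 CPM (log2 fold change -0.29 ± 0.06, edgeR adjusted p = 0.0144). Cyp1a2 fell by 0.18 ± 0.04 on the log2 scale. Cyp4b1, a P450 acting on fatty acids, went the other way, from 291, 275, 299 and 283 CPM to 685, 614, 515 and 465 CPM (1.02 ± 0.08, edgeR adjusted p = 0.000141), and the epoxide hydrolase gene Ephx1 rose by 0.55 ± 0.06. Cyp2a4 was lower at -2.61 and Adh1 at -2.38, but without Sox9 or Sox10 cells Adh1 did not pass (-0.06). Sult1e1, the oestrogen sulfotransferase gene, was lower at -1.51 with all cells and higher at 1.55 without those cells. Among 22 tested supporting-cell identity genes 9 were higher and 5 lower. The largest of these changes were Steap4 (2.48) and Cldn10, a claudin gene (-1.63), which did not pass without Sox9 or Sox10 cells (-0.14). Hes1, a Notch target that helps hold the supporting-cell fate, rose by 0.75 ± 0.08, Epas1 by 0.63, and Muc2, a mucin gene, fell by 0.23 ± 0.06. Oxidative phosphorylation genes were lower in 3 of 40, near the 7.86% of all genes, and higher in none. Cytosolic ribosomal protein genes were higher in 27 of 40, by a median of only 0.14.

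Of 18 tested hypoxia and glycolysis genes 9 were higher and 1 lower, against 9.06% and 7.86% of all genes. Ldha, the lactate dehydrogenase A gene, went from 83.5, 96.0, 87.1 and 92.2 CPM to 201, 227, 203 and 218 CPM (log2 fold change 1.28 ± 0.04, edgeR adjusted p = 3.17e-06), and Pfkfb3, a driver of glycolysis, rose by 1.63. Vegfa was lower at -1.05 with all cells and stood at 0.81 without Sox9 or Sox10 cells, where it did not pass.

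Of the 23 small proline-rich and cornified envelope genes, 11 were abundant enough to test, and 3 were higher and 1 lower, where 16.9% of all genes were called. S100a6, a calcium-binding protein gene, went from 24.8, 22.4, 18.8 and 40.9 CPM to 72.1, 94.1, 75.2 and 85.3 CPM (log2 fold change 1.67 ± 0.15, edgeR adjusted p = 0.000215). Sprr1b, Sprr2a3 and Sprr3 did not reach the count filter. Among 17 tested repair keratin and adhesion genes 4 were higher and 3 lower, against 9.06% and 7.86% of all genes. Krt19, a keratin of simple and regenerating epithelia, rose by 1.33 ± 0.07 from 27.4, 30.5, 36.8 and 23.5 CPM to 75.5, 78.9, 74.4 and 59.7 CPM. Anxa1, a lower member at -2.08, did not pass without Sox9 or Sox10 cells (-0.19). Hbegf, the heparin-binding EGF ligand, rose by 1.06 ± 0.05, and Egf by 2.26 at levels of 5.15 to 6.01 CPM. Of the junction genes, Cldn4 and Cldn7, both claudins, rose by 1.07 and 0.57, 2 of 21 tested that were higher, near the 9.06% of all genes, while 4 were lower, among them Cldn5 (-3.56). Actin cytoskeleton genes were higher in 10 of 21 and lower in 1, against the same shares of all genes (9.06% and 7.86%). The leading ones were Srf (0.66), Tpm4 (0.65) and Zyx (0.60). Of 13 YAP and TGF-beta responsive genes 5 were higher and 2 lower, again against 9.06% and 7.86% of all genes. Ccn1, a matricellular YAP target, stood at 0.88 ± 0.06.

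No other gene of the endothelin pathway passed as higher. Of 7 listed, 3 were abundant enough to test, and 1 was lower. Ece1, the enzyme that cuts endothelin precursors to the active peptide, stood at 822, 783, 765 and 816 CPM at rest and 722, 777, 759 and 756 CPM in stress-marked cells (log2 fold change -0.04 ± 0.04, edgeR adjusted p = 0.598). Mme, a neprilysin gene whose product degrades endothelins, was lower at -3.39 ± 0.47 and fell below the filter without Sox9 or Sox10 cells. Edn1 did not pass (-1.24 ± 0.76), and the receptor genes Ednra and Ednrb did not reach the filter.

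Of genes with at least 30 CPM at rest, those with the largest falls lost most of that difference without the Sox9 or Sox10 cells, as far as they could be tested. Rgs5, a regulator of G protein signalling best known from pericytes, stood at 3391, 3989, 2782 and 2444 CPM in resting cells and 83.0, 311, 157 and 490 CPM in stress-marked cells (log2 fold change -3.81 ± 0.43, edgeR adjusted p = 0.000655). Without Sox9 or Sox10 cells the difference of Rgs5 was 0.02 ± 0.29. Msln, the mesothelin gene, went from 785, 881, 593 and 546 CPM to 5.87, 56.1, 12.2 and 68.8 CPM (-4.52 ± 0.53), and stood at -0.47 ± 0.26 without those cells. Ltf, the lactoferrin gene, went from -3.16 to 0.35 and Rgr, an opsin gene, from -3.59 to -0.57. Sox10 itself, Stard13, Gata6 and Ppp1r1b fell below the count filter when the Sox9 or Sox10 cells were left out. The remaining leading falls were Dcpp3, a gene of secreted proteins first described in salivary gland (-4.86), Slc22a20 (-3.48), Tnfaip8 (-3.40) and Chil6 (-3.34). Of the 12 named falls, 8 could be tested without the Sox9 or Sox10 cells and none of the 8 passed. The list of fibroblast and vessel markers, which includes Rgs5, summed to 3337 to 4833 CPM at rest against 1140 to 1306 CPM. Without the Sox9 or Sox10 cells these sums were 1092 to 1269 and 985 to 1192 CPM, with Col3a1 and Cdh5 at 0 in stress-marked cells.

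**Figure D3:**
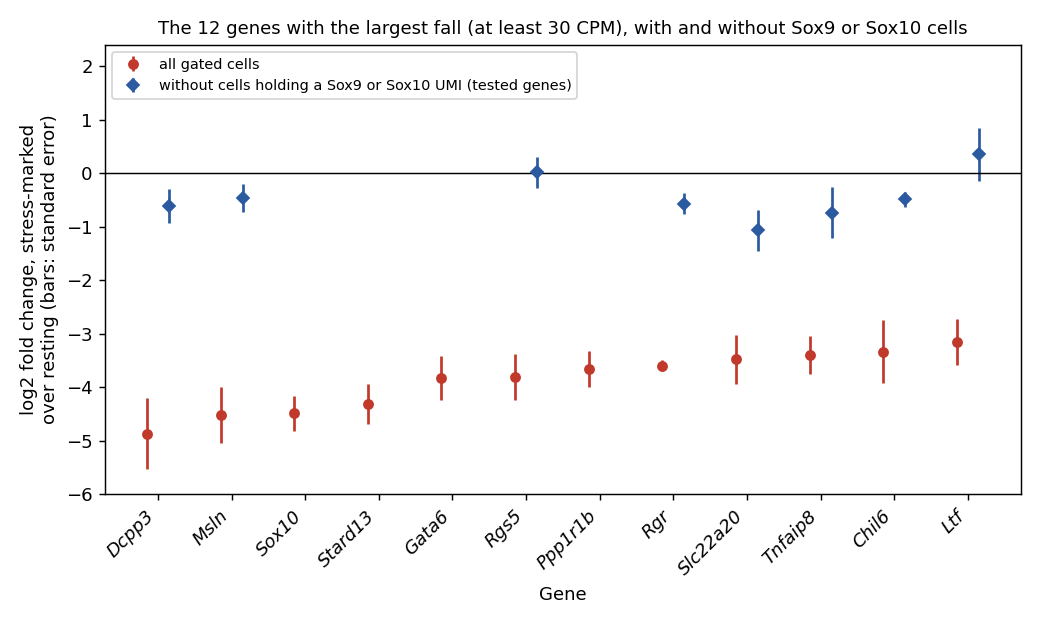
Log2 fold change (y axis, bars giving the standard error) of the 12 genes with the largest fall among those with at least 30 CPM at rest, with all gated cells (red circles) and, for the 8 genes still tested, without cells holding a Sox9 or Sox10 UMI (blue diamonds). The red points lie between -4.86 and -3.16 and the blue points between -1.07 and 0.35.

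Other genes led the falls once the Sox9 or Sox10 cells were left out. Spon2, a secreted matrix protein gene, stood at -1.56 ± 0.18 (edgeR adjusted p = 0.000419), Itga4, an integrin gene, at -1.21 and A2ml1, a protease inhibitor gene, at -1.16. Crabp1, a retinoic acid binding protein gene, went from 441, 446, 441 and 492 CPM to 194, 215, 343 and 303 CPM with all cells and stood at -0.98 ± 0.10 without the Sox9 or Sox10 cells. Both stress-marked female sums lay below both male sums. Abca13, a lipid transporter gene, stood at -0.83 ± 0.09, and the sulfotransferase gene Sult6b1 at -1.09. All 6 also passed with every gated cell included, Spon2 at -1.37 and Abca13 at -0.73. Adamts1, a matrix protease gene, and Csrp1, a LIM protein gene, are 2 cases in the opposite direction. They were higher without the Sox9 or Sox10 cells (3.84 and 2.03) and did not pass with all cells (0.22 and -0.25). With all cells, Adamts1 was detected in 10.5% of stress-marked and 9.12% of resting cells. The 10 highest stress-marked cells held 32.8% of its UMIs on that side.

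Across the count of marker UMIs, many of these genes were ordered, which is described without a test because the cells were binned on the rule itself. The bins of 0, 1 to 3, 4 to 9, 10 to 29 and at least 30 UMIs held 2698, 2289, 978, 490 and 145 cells. They include the Sox9 or Sox10 cells, 20.1% of the bin of 0 and 7.12% of that of 1 to 3. The part of this makeup in the steps was not tested. Mean Atf3 over the 4 libraries was 354, 487, 939, 1762 and 3121 CPM, and Nr4a1 was 425, 642, 1277, 2113 and 3069 CPM. Both rose at every step. The cells left between the sides lay nearer the resting cells for these 2 genes, but not for all, since Cyp4b1 was 287, 459 and 580 CPM and Abcc5 153, 88.6 and 71.9 CPM in the first 3 bins. Ldha followed at 89.7, 105, 150, 260 and 498 CPM. Egr1 instead levelled off, at 1005, 1485, 2259, 2605 and 2459 CPM. Cyp2g1 went down at each step, from 17768 to 15556, 12351, 8961 and 6030 CPM, as did Abca13, from 713 to 255 CPM, and Crabp1, from 455 to 198 CPM. Sox9 began at 97.0 CPM and dropped mainly at the first step.

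**Figure D4:**
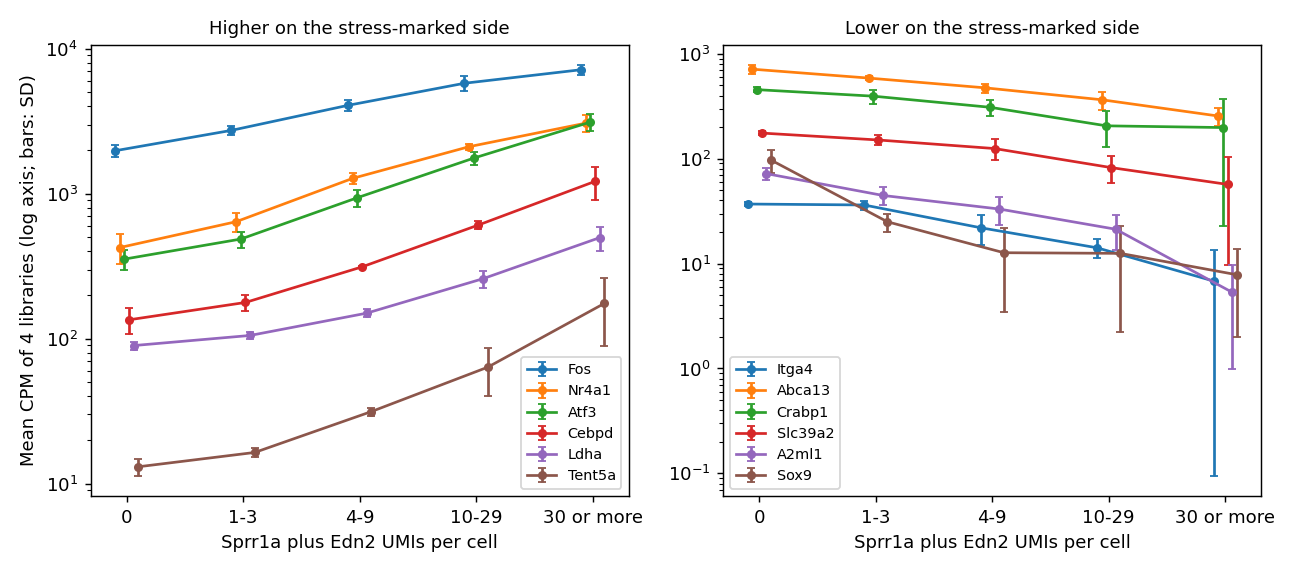
Mean level over 4 libraries (y axis, CPM on a log axis, bars giving the SD) in cells binned by their Sprr1a plus Edn2 UMIs (x axis), for 6 genes higher (left) and 6 lower (right) on the stress-marked side. Atf3 rises at every step from 354 to 3121 CPM, whereas Sox9 drops mostly between the bins of 0 and of 1 to 3 UMIs.

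The level of each marking gene was also read, without a test, in cells split by the other. With the sides set by Sprr1a alone, Edn2 stood at 772, 446, 594 and 781 CPM in Sprr1a-marked cells and at 180, 197, 170 and 165 CPM in cells without it. With the sides set by Edn2 alone, Sprr1a stood at 262, 61.9, 88.7 and 23.6 CPM in Edn2-marked cells and at 36.1, 13.2, 14.2 and 4.91 CPM in the others, so it was higher in 4 of 4 libraries although the sums overlapped. Over the other genes, these splits called 785 of 13293 higher (5.91%) and 605 lower (4.55%) for Sprr1a, and 1155 of 12688 higher (9.1%) and 842 lower (6.64%) for Edn2.

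Cells marked by Sprr1a differed from those marked by Edn2 alone. Cells with at least 4 Sprr1a UMIs (90, 57, 45 and 20) were compared with cells of at least 4 Edn2 and no Sprr1a UMIs (279, 297, 301 and 293), a comparison added after the counts were seen. Most Sprr1a-marked cells carried Edn2 too, 111 with at least 4 UMIs and 69 with 1 to 3. The total of marker UMIs was not matched between the groups, and its part in the differences was not tested. Of 11536 genes tested 257 were higher (2.23%) and 175 lower (1.52%) in the Sprr1a-marked cells, 3.74% in all. The largest rises that met the naming rule were Lrmp (2.78 ± 0.29), with 60.6% of its stress-marked UMIs in 10 cells, Dkk3, a secreted protein of the Dickkopf family (2.18 ± 0.16), Msx1, a homeobox factor (1.79 ± 0.20), Urah (1.56 ± 0.14) and Prr15 (1.52 ± 0.24). Of the antigen-presentation genes, Cd74 (1.51), H2-Ab1 (1.38), H2-Aa (1.30) and H2-DMb1 (0.72) were higher, and H2-Eb1 did not pass (1.20, edgeR adjusted p = 0.0681). Also higher were 6 of 16 tested interferon-responsive genes and 8 of 22 immediate early genes. The keratin gene Krt19 stood at 1.36. The largest falls that met it were those of Sult6b1, a sulfotransferase gene, at -5.38 ± 0.21 (edgeR adjusted p = 2.5e-09), Sult1c1 at -2.73 ± 0.16, Bpifa1 at -2.70 ± 0.48, Fmo6 at -2.55 ± 0.18 and Gpx6 at -2.47 ± 0.32. Hbegf, which rose on the stress-marked side as a whole, was lower in Sprr1a-marked than in Edn2-marked cells (-1.12).

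The share of stress-marked cells could not be told apart between the sexes with 2 libraries each. The females had 25.6% and 25.9% of gated cells stress-marked and the males 25.1% and 21.2%, a mean of 25.8% ± 0.195 (SD, n = 2) against 23.2% ± 2.77 (exact two-sided permutation p = 0.33, the smallest that 2 against 2 allow). The difference was -2.61 percentage points, and -0.654 without male 2. The share with at least 4 Sprr1a UMIs was 5.34% and 3.59% for female libraries, against 2.75% and 1.18% for male ones. These did not overlap, and the exact two-sided permutation p was again 0.33.

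The change itself differed between the sexes in 14 of 12717 genes (0.11%), 12 with a larger male value (0.0944%) and 2 with a smaller one (0.0157%), by a sex-by-side term in edgeR at an adjusted p of 0.05. At an unadjusted p of 0.05, 797 genes passed. Fmo6, a flavin monooxygenase gene, was at 169, 172, 110 and 153 CPM in resting cells of female 1, female 2, male 1 and male 2, and at 45.7, 52.9, 131 and 175 CPM in stress-marked cells. It was lower on the stress-marked side in both females and slightly higher in both males, and the difference between the sexes was 2.03 ± 0.10 on the log2 scale (edgeR adjusted p = 0.00145). Sult1c1 went from 1964 and 2138 CPM to 442 and 623 CPM in females and from 1436 and 2033 CPM to 1356 and 1655 CPM in males (1.79 ± 0.13, adjusted p = 0.00645). Nqo1, a quinone reductase gene known for expression in the dorsal zone of this epithelium, went from 43.9 and 49.7 to 22.8 and 27.3 CPM in females and from 38.7 and 53.5 to 45.9 and 60.2 CPM in males (1.12 ± 0.11). Slc25a35 (1.90), Svopl (1.99), Abcc5 (1.29), Lrig1 (1.23), Plk5 (1.16), Acaa2 (0.98), Slc39a2 (0.73) and Ckb (0.71) likewise had the lower difference in both females. Wfdc2 (0.68) rose more in the males, and the antioxidant genes Gstm1 (-0.39) and Prdx6 (-0.38) rose more in the females. Fmo6, Sult1c1, Abcc5, Lrig1, Plk5 and Slc39a2 were also lower in Sprr1a-marked than in Edn2-marked cells, whose makeup by sex is given above. With Sprr1a-positive cells removed from the stress-marked side, the difference was 2.11 for Fmo6, 1.81 for Sult1c1 and 1.29 for Nqo1 but 0.31 for Wfdc2 (edgeR adjusted p = 0.868). Of the 14 genes, 3 passed, namely Fmo6, Abcc5 and Gstm1. With 1 library left out, Plk5 and Slc39a2 lost their call without female 1, Acaa2 without female 2, and Prdx6, Wfdc2, Gstm1 and Slc39a2 without male 2.

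**Figure D5:**
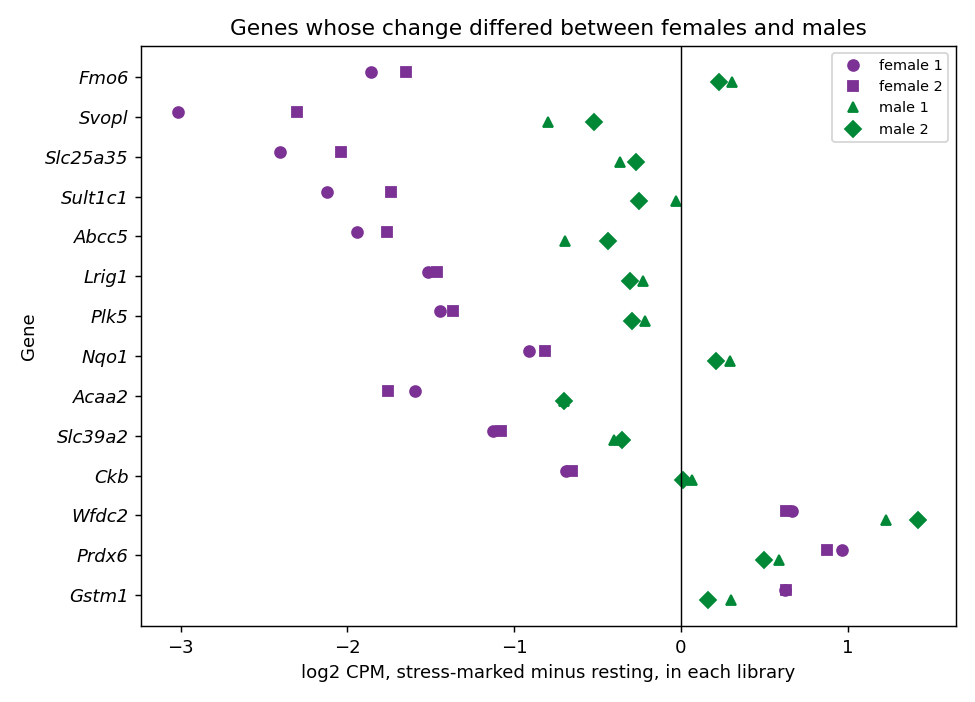
Difference in log2 CPM between stress-marked and resting cells (x axis) in each library for the 14 genes with a sex-by-side difference, females in purple and males in green. Fmo6 lies at -1.86 and -1.65 in the females and at 0.31 and 0.23 in the males.

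Within the stress-marked cells, 27 of 12107 genes differed between males and females (0.223%), 25 higher in males (0.206%) and 2 lower (0.0165%). At an unadjusted p of 0.05 the count was 859. They included Sult6b1 (1.19), Fmo6 (1.68) and Sult1c1 (1.54) besides the Y-linked genes. Within the resting cells 7 of 12621 differed (0.0555%), namely 4 Y-linked genes, higher in males (0.0317%), and the X-linked Kdm6a, Kdm5c and Eif2s3x, lower in males (0.0238%). Cxcl1 did not pass in either, and its sex-by-side term had an adjusted p of 0.929 in edgeR.

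Of the 188 genes called at least 1 higher on the log2 scale (1.48% of those tested), 145 had a RefSeq promoter, and 18 of these (12.4%) held an AP-1 match, against 477 of 10136 tested genes (4.71%). Genes called at least 1 lower (2.08% of those tested) held one in 13 of 205 (6.34%). Without the Sox9 or Sox10 cells such higher genes were 1.78% of those tested, and the share with a match was 15 of 163 (9.2%). None of the 17 immediate early genes with a listed promoter held a match. The shares of the other motifs searched were also above those of all tested genes, for CRE on only 8 genes. A CRE match (TGACGTCA) was in 8 of 145 (5.52%) against 3.40% of all tested genes, and an NF-kB motif match in 15 of 145 (10.3%) against 5.07%. Among the genes at least 1 lower these were in 0 and 17 of 205 (8.29%), so the NF-kB share was raised in both directions. Of the 17 immediate early genes, 5 held an NF-kB match. These shares are descriptive, since promoters of related genes are not independent.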

How the data were processed

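Droplet single-cell RNA libraries (5′ chemistry) of 2 female and 2 male mice were analysed. What the authors deposited are whole-number UMI counts for each gene in each barcode, not normalized. Cell Ranger 6.0.2 is named per the file headers, while the submitters' processing notes name Cell Ranger 5.0.1 and mm10. How barcodes were called as cells is not given in the sources used here. Library totals were 100725429 to 111577458 UMIs.

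Raw counts were summed per library and side (5831137 to 7164317 UMIs per stress-marked sum, 8127566 to 9607927 per resting sum), and Sprr1a and Edn2 were removed. edgeR 4.0.16 (R 4.3.3) fitted library plus side with TMM scaling and filterByExpr, adjusted by Benjamini-Hochberg over all genes tested. The standard error is the absolute log2 fold change over the square root of F. The fit was tested on simulated data. DESeq2 1.42.0 was an alternative. Doublets were scored with scanpy 1.11.5 and kept. Library pairs shared 136 to 172 barcodes, 2 to 10 of them gated, and each pair differed by far more than sampling noise (chi-square per degree of freedom 21.8 to 39.5).

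Genes could be named if they passed the paired test, changed the same way in 4 of 4 libraries and had at least 30 CPM on the higher side. Of these the 12 largest changes each way were named (5 in other comparisons). Up to 4 genes per list that passed the test were added. Other genes named were chosen after their values were seen. The members and lists were chosen with earlier results of these data known. The planned comparison of Sprr1a-only with Edn2-only cells needed 20 cells per library and had 19, 8, 3 and 2 Sprr1a-only cells, so it was replaced. Shares are of gated cells.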

Additional observations from a re-analysis of the deposited data

Results flagged for a closer look

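In 3 of 113 groups of 4 libraries, 1 library stood apart from the others by Dixon's test, which flags about 1 in 20 groups by chance. All 3 were male 2. Rgr differed by -3.04 (log2 CPM, stress-marked minus resting) in male 2, against -3.65 in female 1, -3.69 in female 2 and -3.73 in male 1. Anxa1 differed by -1.30 in male 2, against -2.32, -2.38 and -2.34. The share of stress-marked cells was 21.2% in male 2, against 25.6%, 25.9% and 25.1%.

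For 14 genes the stress-marked minus resting change differed between males and females by the sex-by-side test in edgeR. The male minus female difference in log2 change was 2.03 for Fmo6, 1.99 for Svopl, 1.90 for Slc25a35, 1.79 for Sult1c1, 1.29 for Abcc5, 1.23 for Lrig1, 1.16 for Plk5, 1.12 for Nqo1, 0.98 for Acaa2, 0.73 for Slc39a2, 0.71 for Ckb, 0.68 for Wfdc2, -0.38 for Prdx6 and -0.39 for Gstm1. With 1 library left out in turn, 6 of the 14 lost their call at least once, namely Plk5, Slc39a2, Acaa2, Prdx6, Wfdc2 and Gstm1.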

How the results depend on the processing

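The count of higher genes (1152) was 742 by DESeq2 and 711 to 1127 with 1 library left out, lowest without female 2. The count of lower genes (999) was 510 by DESeq2, 605 with Sprr1a alone as the mark, 536 at a mitochondrial share of at most 5%, 589 without Sox9 or Sox10 cells, 663 when those cells were also limited to 10000 to 20000 UMIs, and 507 to 839 with 1 library left out (507 without female 2, 611 without female 1). Without TMM scaling the split was 904 higher and 1433 lower. Higher or lower genes turned round in few cases. With Sprr1a alone Bpifa1 stood at -1.48, Hbegf at -0.42 and Sult1e1 at 0.091. Without Sox9 or Sox10 cells, and then with the depth limit as well, Rgs5 stood at 0.017 and 0.016, Ltf at 0.35 and 0.56, Cxcl17 at 1.75 and 0.94, Tnfaip3 at 0.54 and 0.78, S100a10 at 0.40 and 0.17, Vegfa at 0.81 and 0.45 and Sult1e1 at 1.55 and 1.57, and Me1 stood at 0.071 in the first of these. Of the other named genes' alternatives, 1963 kept the call and 160 lost it, and the cause was not tested. Sprr1a-marked against Edn2-marked cells gave 432 genes, 255 by DESeq2, 794 with no count filter and 245 to 335 with 1 library left out (245 without male 1, 285 without female 1). The sex-by-side test gave 14 genes, 52 with no filter, 26 by DESeq2, 35 at 10 marker UMIs, 118 at 10000 to 20000 UMIs, 23 without doublets, 37 without Sox9 or Sox10 cells, 3 with Edn2 at least 4 and Sprr1a 0, and 26 to 123 with 1 library left out (123 without male 1). Males against females in stress-marked cells gave 27, 105 with no filter, 48 by DESeq2, 7 at 2 and 48 at 10 marker UMIs, 123 at the depth limit, 41 without Sox9 or Sox10 cells, 14 with Edn2 at least 4 and Sprr1a 0, and 8 to 169 with 1 library left out. In resting cells it gave 7, 41 with no filter, 38 by DESeq2, 14 at the depth limit, 12 without doublets, 13 without Sox9 or Sox10 cells and 15 to 48 with 1 library left out. The share difference ran from -4.57 to -0.654 points with 1 library left out. Dropping the library pairing (no replicate block) gave 1045 higher and 908 lower genes, and 254 for Sprr1a-marked against Edn2-marked cells. A replicate block on the number shared by males and females gave 41 genes in stress-marked and 36 in resting cells. The correlation of same-numbered deviations was 0.145 and 0.260, and 2 pairs do not show whether the number stands for anything shared. A left-out library leaves 1 library in a sex, assumed to vary like the others. With 4 libraries, small sex differences and genes under the count filter were not detectable at this depth.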

Other observations

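Chil4, a chitinase-like gene, reached 541, 257, 69.1 and 4.8 CPM in stress-marked cells and 28.3, 1.11, 1.24 and 69.9 CPM in resting cells. It was higher in 3 of 4 libraries and did not pass (edgeR adjusted p = 0.147). Its UMIs lay in 51 stress-marked cells, and the 10 highest held 90.5% of them. In Sprr1a-marked against Edn2-marked cells the log2 fold change of Chil4 was 7.29. The Sprr1a-marked cells numbered only 90, 57, 45 and 20 per library, so a few cells with much Chil4 can carry that value.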
